A study of Mus musculus with 6 samples.

Results

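The genes described here carry signals from growth factors, energy and nutrients to the kinase mTOR, the target of rapamycin. They were listed by name for their role in the pathway, with earlier results of these data known. Of 44 genes on the list, 42 were measured among 19938 named genes of the series, each by the brightest probe set that carries its symbol alone. Rps6kb1 and Rps6ka1 were not analysed here. Gene expression was read on 1 array per mouse in splenic cells of B6D2F1/J mice, 10 days after lethal irradiation and allogeneic transplantation of T cell depleted B6 bone marrow. The mice received rapamycin at 1.5 mg/kg (3 mice) or PBS (3 mice) by intraperitoneal injection on alternate days. B6 spleen cells were given with the marrow or left out, and the labels do not say for which mice. The cells are labelled myeloid-derived suppressor cells, immature myeloid cells that restrain T cells, but were isolated with CD11b beads alone, so other CD11b-bearing cells, of donor or surviving host origin, could be among them.

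As background, mTOR sits in a complex, mTORC1, that switches on protein and lipid synthesis at the surface of the lysosome. Insulin and IGF act through PI3K and AKT to release the small GTPase RHEB, which activates the kinase, while amino acids act through the Rag GTPases, which bring the complex to the lysosome. Low energy acts against mTORC1 through LKB1 and its substrate kinase AMPK. In myeloid cells the PI3K branch also serves chemokine and cytokine receptors and migration.

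The 6 arrays gave log2 values made with RMA, with array medians between 5.42 and 5.46, and their number limits the precision of every value below. Correlation across named probe sets was between 0.997 and 0.998 for arrays of a group and between 0.994 and 0.996 for arrays of different groups. Of 13965 genes bright enough to be tested, limma called 617 higher and 967 lower in the rapamycin mice, a call meaning a Benjamini-Hochberg adjusted p under 0.05. Of these calls 61.0% were lower, against 71.0% with array medians aligned over all probe sets, 50.7% with medians aligned over named probe sets and 44.7% over the genes tested. The CD11b gene Itgam and 7 other markers of myeloid cells (Ptprc, Spi1, Lyz2, Fcer1g, Tyrobp, Cybb and Itgb2) lay well above the brightness threshold (a log2 mean of 4.72) on all arrays, and 0 of these 8 were called by limma (1 had an unadjusted p under 0.05). Some markers of other cell types moved with the treatment. Of 11 tested T cell markers 3 fell (Cd8a by 0.27 and Ubash3a by 0.51 among them, log2), and the summed linear level of the 14 measured was 536 to 574 with rapamycin and 636 to 682 with PBS. Of 15 macrophage markers 2 rose and 2 fell (Cd68 stood at 0.83 and Slc40a1 at -0.38), with sums of 9794 to 10054 with rapamycin and 6788 to 9043 with PBS. Sums were also apart between the groups for 10 dendritic cell markers (5426 to 6421 with rapamycin, 4449 to 5361 with PBS) and for 9 erythroid markers (423 to 467 with rapamycin, 395 to 402 with PBS), and for 6 platelet markers (207 to 210.1 with rapamycin, 202 to 206 with PBS). Single markers were mixed: changes were negative in 5 of 8 tested dendritic cell, 3 of 7 erythroid and 3 of 4 platelet markers. Limma called 1, 1 and 0 of these tested markers, beside 11.3% of all genes tested. The sums overlapped for monocyte, neutrophil and B cell markers. Limma nevertheless called 3 of 11 tested monocyte markers lower and 1 higher (36.4%), beside 11.3% of all genes tested. It called 1 of 15 neutrophil markers, higher, and 1 of 5 tested B cell markers, lower. Among these Ace (-0.57) and Cd79b (-0.32) fell and Ms4a6c (0.38) and Il1r2 (0.70) rose. Itgax of the dendritic cell list (0.82) and Slc4a1 of the erythroid list (0.64) rose too. Of the T cell markers 3 were under the brightness threshold, and RMA lists no value at 0. In these bulk samples fewer cells of a type and less RNA per cell cannot be told apart, and the part of cell composition in the values below was not tested.

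A few genes of nutrient and energy sensing were slightly lower in rapamycin-treated mice. Stk11, which encodes the kinase LKB1 that activates AMPK, was 1.32-fold lower with rapamycin, and Rraga, the GTPase RagA, was 1.26-fold lower. Fnip1, a partner of folliculin, was 1.24-fold lower, Rps6kb2, the S6 kinase S6K2, 1.17-fold lower and the sestrin Sesn3 1.16-fold lower. These 5 of the 41 genes tested were called lower by limma and 0 were called higher on the probe sets used. At an unadjusted p under 0.05 there were 19 of the 41, 12 lower and 7 higher, beside 28.2% of all 13965 genes tested (2363 lower and 1578 higher). The 5 calls are 12.2% of the genes, beside a background of 11.3% of all genes called in either direction, 6.92% called lower and 4.42% called higher, so the share called in either direction is near the background. The median log2 change of the 41 genes was -0.03, beside -0.02 for all genes tested. In 21 of the 41 (51.2%) all 3 arrays of one group lay above or below all 3 of the other, 14 of them lower and 7 higher with rapamycin. This held for 32.0% of all 13965 genes tested, 2705 lower and 1759 higher.

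**Figure D1:**
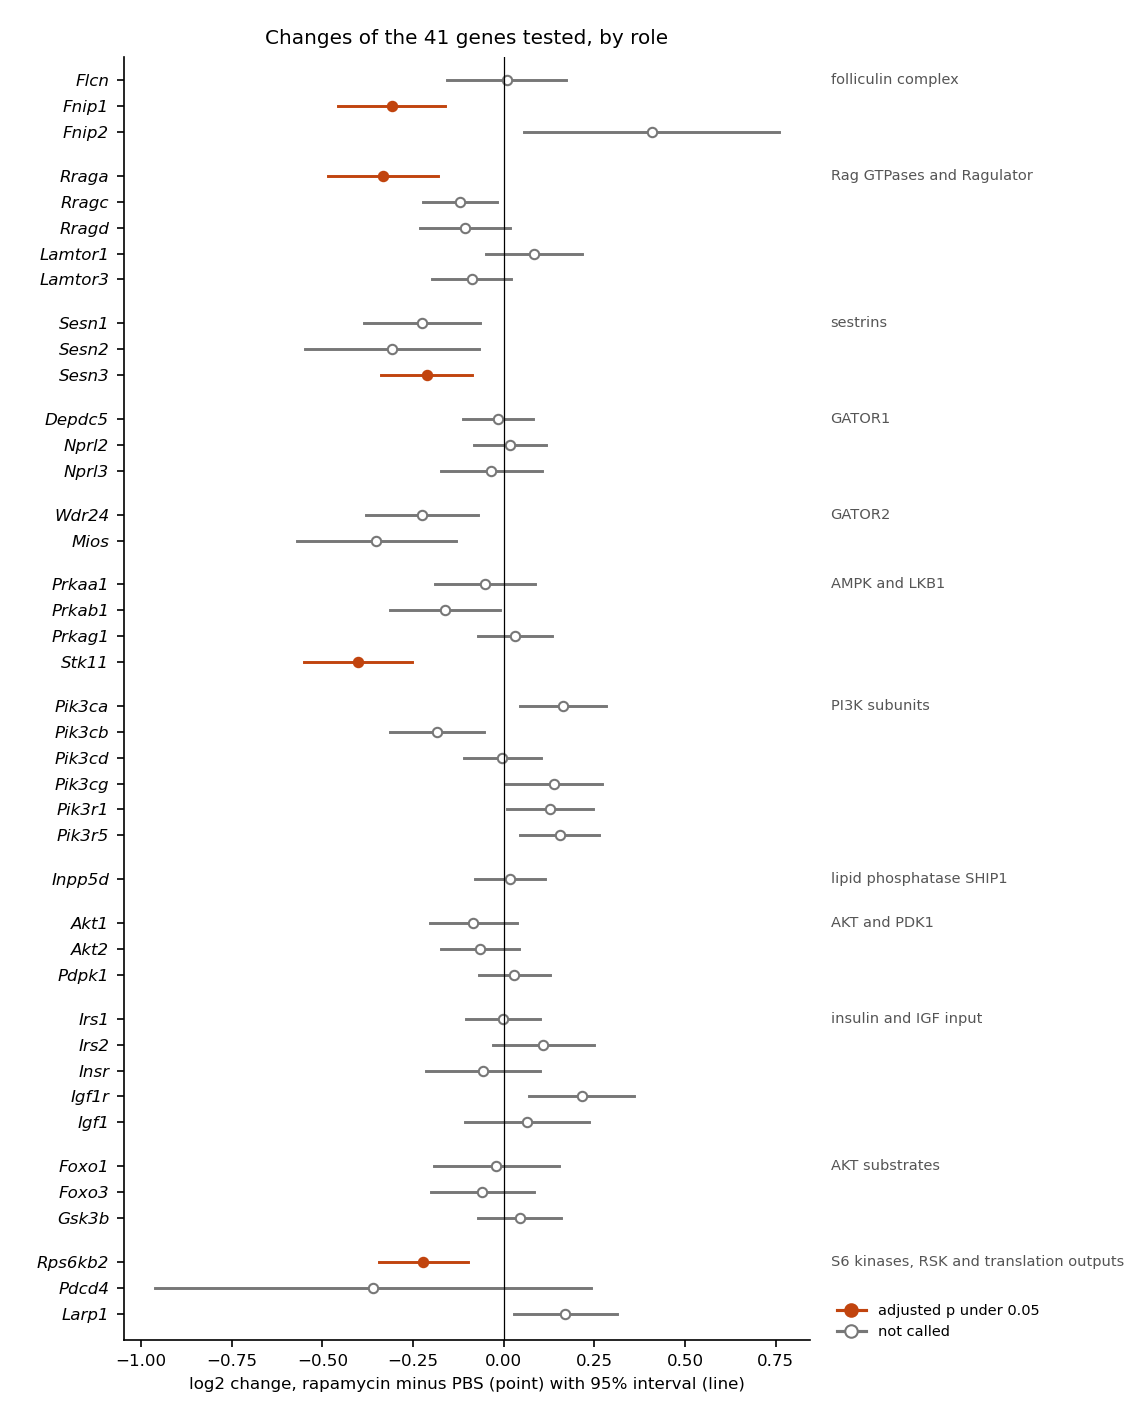
Log2 change with rapamycin relative to PBS (horizontal axis, point) with limma's 95% interval (line) for the 41 genes tested, 3 mice per group, grouped by role. Filled points are the 5 genes with an adjusted p under 0.05, all at negative changes, with Stk11 at -0.40 the most negative.

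Stk11 read 9.58, 9.58 and 9.38 on the log2 scale in the rapamycin arrays and 9.90, 9.92 and 9.94 in the PBS arrays, a log2 change of -0.40 ± 0.06 (SE, adjusted p 0.0130 with limma). The PBS arrays were close together (SD 0.02), every rapamycin array was below them, and rapamycin replicate 3 was the lowest. Rraga read 8.33, 8.14 and 8.22 with rapamycin and 8.47, 8.61 and 8.60 with PBS, a log2 change of -0.33 ± 0.07 (limma adjusted p 0.0231). Fnip1, which with folliculin acts on the Rag GTPases, read 9.13, 9.14 and 9.27 with rapamycin and 9.42, 9.58 and 9.46 with PBS, a change of -0.31 ± 0.06 (limma adjusted p 0.0264). In neither gene did the groups overlap, and the gap was smallest between rapamycin replicate 1 and PBS replicate 1 for Rraga and between rapamycin replicate 3 and PBS replicate 1 for Fnip1. Rps6kb2, a kinase that mTORC1 switches on and that phosphorylates ribosomal protein S6, read 7.95, 7.91 and 7.95 with rapamycin and 8.09, 8.24 and 8.14 with PBS (-0.22 ± 0.05, limma adjusted p 0.0392). Sesn3, a stress-induced inhibitor of mTORC1, read 5.41, 5.45 and 5.31 with rapamycin and 5.62, 5.65 and 5.55 with PBS (-0.21 ± 0.05, limma adjusted p 0.0470), and Sesn3 was the gene just inside the threshold. Mios was the gene just outside it (adjusted p 0.0551 with limma).

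**Figure D2:**
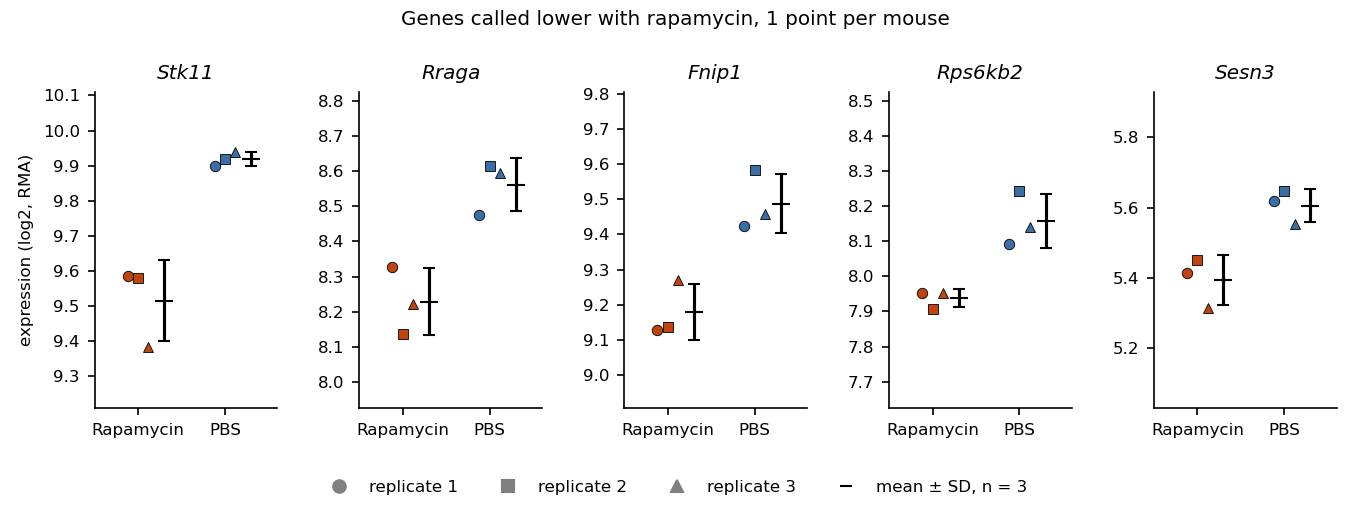
Log2 expression (vertical axis, each panel over the same span) of the 5 called genes in each mouse, rapamycin left and PBS right, with the mean ± SD beside the points (n = 3 each). In all 5 panels every rapamycin point lies below every PBS point.

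Each of the 5 calls was lost in some fits with 1 array left out. Stk11 stayed called in 4 of the 6 fits with 1 array left out, and had an adjusted p of 0.0660 without PBS replicate 2 and 0.0578 without PBS replicate 3 (limma). Rraga stayed called in 2 of the 6 fits, those without rapamycin replicate 1 (0.0486) and without PBS replicate 1 (0.0420), and Fnip1 in 1, that without rapamycin replicate 3 (0.0285). Sesn3 (0.0671 to 0.149) and Rps6kb2 (0.0561 to 0.110) were called by limma in 0 of the 6 fits. Without rapamycin replicate 1, 2 or 3 the genes called lower numbered 2, 1 and 2, and without PBS replicate 1, 2 or 3 they numbered 3, 0 and 0, while the share of all genes called also dropped, to between 0.809% and 9.57%. Stk11, Rraga and Fnip1 were called under all 11 other settings run on the 6 arrays. Rps6kb2 was called in 8 of the 11. Sesn3 was called in 7 of the 10 settings that tested it.

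**Figure D3:**
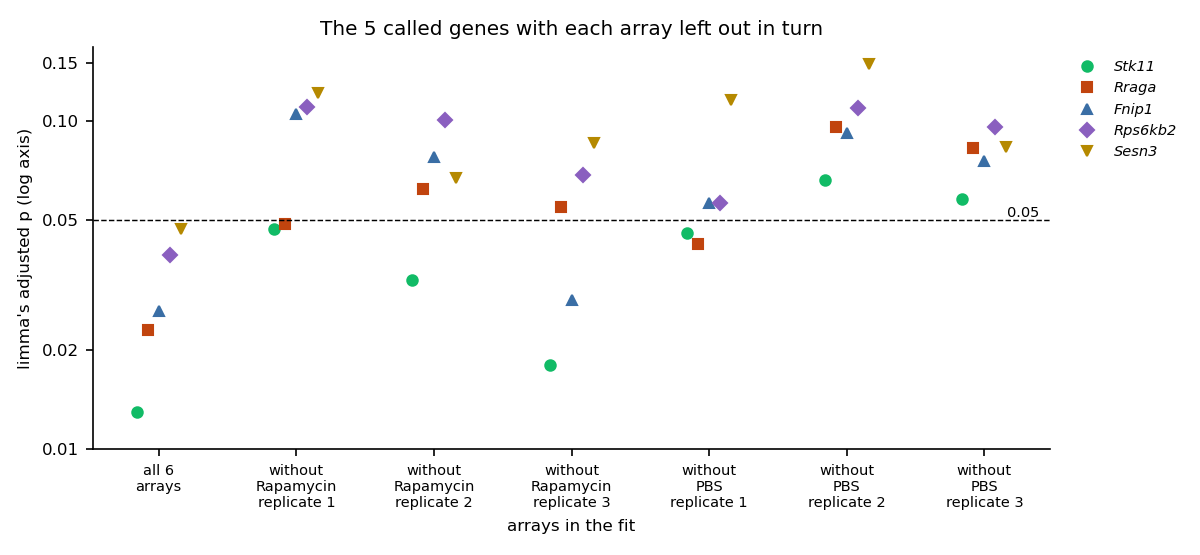
Limma's adjusted p (vertical axis, log scale) of the 5 called genes with all 6 arrays and with each array left out in turn; the dashed line marks 0.05. Without PBS replicate 2 or PBS replicate 3 all 5 points lie above the line, and without rapamycin replicate 3 those of Stk11 and Fnip1 lie below it.

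The promoters of called genes are shown as a description. All 5 genes were called lower, beside 61.0% of the calls over all genes, and shared regulation was not tested. A window of 300 bases was at hand for 4 of the 5, from 250 bases before to 50 after the start site (RefSeq, GRCm38.p6). Each is printed 5′ to 3′ on the gene's strand, with the letters of a searched motif in capitals.
Fnip1, chr11:54437929-54438228, plus strand: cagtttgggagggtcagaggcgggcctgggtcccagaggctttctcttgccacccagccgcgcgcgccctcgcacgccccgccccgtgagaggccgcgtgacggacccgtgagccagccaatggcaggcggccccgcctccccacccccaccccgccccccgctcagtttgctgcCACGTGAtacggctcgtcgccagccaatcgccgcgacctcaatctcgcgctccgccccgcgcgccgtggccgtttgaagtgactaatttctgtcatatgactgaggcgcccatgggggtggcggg
Rraga, chr4:86575423-86575722, plus strand: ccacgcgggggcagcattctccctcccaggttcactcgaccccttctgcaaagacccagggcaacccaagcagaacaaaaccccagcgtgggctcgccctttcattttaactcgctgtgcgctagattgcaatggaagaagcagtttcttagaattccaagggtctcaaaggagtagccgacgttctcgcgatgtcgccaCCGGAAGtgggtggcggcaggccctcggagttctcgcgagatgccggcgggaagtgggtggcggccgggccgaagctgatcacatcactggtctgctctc
Stk11, chr10:80115545-80115844, plus strand: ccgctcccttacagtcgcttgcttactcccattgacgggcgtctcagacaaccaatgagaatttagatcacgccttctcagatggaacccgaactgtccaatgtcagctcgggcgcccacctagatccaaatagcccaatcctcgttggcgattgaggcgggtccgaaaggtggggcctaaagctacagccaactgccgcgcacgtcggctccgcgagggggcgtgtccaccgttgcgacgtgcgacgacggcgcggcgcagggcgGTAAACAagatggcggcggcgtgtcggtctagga
Sesn3, chr9:14276051-14276350, plus strand: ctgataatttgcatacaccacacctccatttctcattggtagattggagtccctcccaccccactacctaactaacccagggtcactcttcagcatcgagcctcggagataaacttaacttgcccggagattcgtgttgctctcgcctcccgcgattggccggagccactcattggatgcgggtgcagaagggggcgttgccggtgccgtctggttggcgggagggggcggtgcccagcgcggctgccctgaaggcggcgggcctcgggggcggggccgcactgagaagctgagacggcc

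The 5 motifs searched, on both strands, were the E-box CACGTG, the core of the element bound by the lysosomal regulators TFEB and TFE3 (TCACGTG, which contains an E-box), TGTTTAC (FOXO factors), TGATGCA (the ATF4 element) and CCGGAAG (ETS factors). The capitals in Fnip1 mark an E-box that is also a TCACGTG match on the opposite strand. The capitals in Stk11 mark the FOXO motif on the opposite strand, and those in Rraga an ETS motif. Sesn3 held none of these letters in its window. Windows were at hand for 38 of the 42 genes measured. TCACGTG was in those of 5 (13.2% of the 38 genes: Fnip1, Rragc, Lamtor1, Irs1 and Irs2), beside 3.77% of all 32851 promoter windows (the E-box alone was in the same 5 and in 7.15% of all). The 13.2% counts genes and the 3.77% counts windows, so the shares are not alike. The 38 genes had 50 windows, and a gene with more than 1 window could more easily hold a motif. The FOXO motif was in windows of 4 genes (Stk11, Sesn1, Akt1 and Pik3cg; 3.65% of all windows), the ETS motif in 6 (8.86%) and the ATF4 motif in 2 (3.15%). Of the 5 genes with TCACGTG, Fnip1 fell and the others did not pass the test, at log2 changes of -0.12 for Rragc, 0.09 for Lamtor1, -0.0014 for Irs1 and 0.11 for Irs2.

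Of the insulin and IGF genes on the list (receptors, adaptors and the ligand Igf1), 0 of 5 tested were called by limma (1 had an unadjusted p under 0.05). Over all genes tested, limma called 11.3% and 28.2% had an unadjusted p under 0.05. Igf1r, the IGF receptor, read 9.74, 9.58 and 9.58 with rapamycin and 9.35, 9.45 and 9.46 with PBS, with a change of 0.21 ± 0.06 (SE) that missed the threshold (adjusted p 0.0676 with limma). The groups did not overlap, and Igf1r was called higher in 1 setting, with array medians aligned over the genes tested (0.25, adjusted p 0.0412). Irs2, an adaptor of both receptors, read 7.64, 7.64 and 7.82 with rapamycin, above the 7.58, 7.58 and 7.61 of the PBS arrays (limma adjusted p 0.273). The insulin receptor Insr, its adaptor Irs1 and the ligand gene Igf1 overlapped between the groups, with 95% intervals of the log2 change that together ran from -0.21 to 0.23. The adaptor Grb10, which restrains the insulin receptor, was under the brightness threshold, at 4.70 ± 0.01 with rapamycin and 4.69 ± 0.04 with PBS (SD, n = 3 each), and was left out of the test. Of further receptors and adaptors in the wider pathway, Igf2r, which binds IGF2 and mannose 6-phosphate, fell by 0.26 ± 0.07 (SE, limma adjusted p 0.0477) and the adaptor Grb2, which links receptors to RAS, fell by 0.26 ± 0.06 (limma adjusted p 0.0405). Gab2, described with the wider pathway, rose. Irs4 (0.09), Gab1 (0.11), Grb14 (-0.22) and Sh2b2 (-0.10) were not called, and of these 4 Grb14 had no overlap between the groups.

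PI3K makes the membrane lipid that recruits AKT. Of the 6 subunits on the list 0 were called by limma, beside 11.3% of all genes tested. An unadjusted p under 0.05 was found in 5 of the 6, 4 of them with a positive change, beside 28.2% of all genes tested. Pik3ca, the p110 alpha catalytic subunit, read 9.05, 9.08 and 9.06 with rapamycin and 8.82, 8.96 and 8.92 with PBS (log2 change 0.16 ± 0.05, SE, limma adjusted p 0.0817). Pik3cb, the beta subunit, had the opposite sign, at 9.73, 9.77 and 9.74 with rapamycin and 9.83, 9.96 and 10.00 with PBS (-0.18 ± 0.05, limma adjusted p 0.0750). Pik3cb was called lower without PBS replicate 1 and under 2 of the scaling settings. Pik3cg, the gamma subunit that chemokine receptors use, stood at 0.14 ± 0.06 and its regulatory partner Pik3r5 at 0.16 ± 0.05 (limma adjusted p 0.163 and 0.0750). The regulatory subunit Pik3r1 stood at 0.13 ± 0.05 (limma adjusted p 0.151). In these 5 the groups did not overlap (32.0% of all genes tested), and in Pik3cd, the leukocyte delta subunit, they did (95% interval of the log2 change -0.11 to 0.10). Subunits of the wider pathway had negative changes and were not called: the regulatory subunit Pik3r2 stood at -0.03 and Pik3r6, another partner of the gamma subunit, at -0.05. The class III kinase Pik3c3 stood at -0.06, its partner Pik3r4 at -0.05 and the class II kinase Pik3c2a at -0.06, all with overlapping arrays. Pik3r3 (-0.15) was under the brightness threshold.

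The AKT kinases Akt1 and Akt2 and their activator Pdpk1 (PDK1) had log2 changes of -0.08, -0.07 and 0.03, with 95% intervals that together ran from -0.20 to 0.13. The AKT substrates Foxo1, Foxo3 and Gsk3b, a pair of transcription factors that AKT keeps out of the nucleus and a kinase that AKT inhibits, had changes of -0.02, -0.06 and 0.04, with intervals from -0.20 to 0.16. Inpp5d, the lipid phosphatase SHIP1 of blood cells that opposes PI3K, stood at 0.02 (interval -0.08 to 0.12). On the brighter probe sets the arrays of the groups overlapped in all 7 of these genes, and limma called 0 of the 7 (0 also had an unadjusted p under 0.05). Over all genes tested, limma called 11.3%, 28.2% had an unadjusted p under 0.05 and 32.0% had no overlap. The brighter probe set of Akt2 has neighbours in number on another chromosome. On the other probe set of Akt2 every rapamycin array was below every PBS array, with a 95% interval of -0.19 to -0.0044 (-0.10 ± 0.04, SE, limma adjusted p 0.154). In the wider pathway the AKT substrate Gsk3a stood at -0.16 with no overlap (limma adjusted p 0.0877) and Foxo4 at -0.03.

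Of the 4 genes of the energy branch on the list, 1, Stk11, was called, beside 11.3% of all genes tested called in either direction. Prkab1, the beta subunit of AMPK that binds glycogen, read 9.68, 9.68 and 9.60 with rapamycin, below the 9.71, 9.93 and 9.82 of the PBS arrays, and missed the threshold (-0.16 ± 0.06, SE, limma adjusted p 0.151). The catalytic subunit Prkaa1 and the gamma subunit Prkag1, which senses AMP, overlapped between the groups, with log2 changes of -0.05 and 0.03. Other AMPK subunits of the wider pathway were not called, with Prkab2 at 0.04, Prkag2 at 0.16 and Prkag3 at 0.03, and Prkaa2 was under the brightness threshold.

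The sestrins are stress-induced proteins that hold back mTORC1, and SESN2 senses leucine. They lay lower in all 3 rapamycin arrays than in any PBS array for each of the 3 genes. For comparison, 32.0% of all genes tested had no overlap between the groups, in either direction. Sesn3 was called and the other sestrins were not, beside 11.3% of all genes tested called. Sesn2, also a target of the ATF4 stress response, read 7.39, 7.40 and 7.12 with rapamycin and 7.47, 7.58 and 7.77 with PBS (-0.31 ± 0.10, SE, limma adjusted p 0.0976). Sesn1, a p53 and FOXO target, read 6.29, 6.26 and 6.17 with rapamycin and 6.60, 6.41 and 6.39 with PBS (-0.23 ± 0.07, limma adjusted p 0.0789). For Sesn2 the nearest arrays of the groups were rapamycin replicate 2 and PBS replicate 1.

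The sestrins bind GATOR2, a complex that counters GATOR1, the complex that switches the Rag GTPases off. Of 5 GATOR2 subunits tested 0 were called by limma (3 had an unadjusted p under 0.05), and in 3 of the 5 all rapamycin arrays were below all PBS arrays, beside the 32.0% of all genes with no overlap in either direction. Over all genes tested, limma called 11.3% and 28.2% had an unadjusted p under 0.05. The list held Mios and Wdr24. Mios read 5.78, 6.05 and 6.04 with rapamycin and 6.24, 6.45 and 6.23 with PBS (-0.35 ± 0.09, SE, limma adjusted p 0.0551), and it was called lower in 5 of the 11 other settings on 6 arrays. Wdr24 read 6.45, 6.44 and 6.25 with rapamycin and 6.56, 6.64 and 6.62 with PBS (-0.22 ± 0.07, limma adjusted p 0.0709). The other 3, from the wider pathway, stood at -0.14 for Sec13, with no overlap, and at 0.06 for Seh1l and -0.01 for Wdr59, whose arrays overlapped. The 3 GATOR1 subunits Depdc5, Nprl2 and Nprl3 had changes of -0.02, 0.02 and -0.03, all with overlapping arrays and with 95% intervals from -0.17 to 0.12. Nprl3 had the same value on 4 arrays, rapamycin replicate 2 and all PBS replicates. A difference between the complexes was not tested.

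At the lysosome, the Rag GTPases pair RagA or RagB with RagC or RagD and are anchored by Ragulator, a complex of 5 LAMTOR proteins. Beside Rraga, Rragc read 8.91, 8.90 and 8.97 with rapamycin and 9.06, 9.03 and 9.05 with PBS (-0.12 ± 0.04, SE, limma adjusted p 0.117), again with no overlap. Rragd lay at the brightness threshold, with its mean over all 6 arrays just above it, at 4.70 ± 0.02 with rapamycin and 4.80 ± 0.08 with PBS (SD, n = 3 each; limma adjusted p 0.239). Rragb was under the brightness threshold. Of the Ragulator genes, Lamtor1, the lipid anchor, stood at 0.09 and Lamtor3 at -0.09, neither called. Of the 3 Ragulator genes outside the list, Lamtor5 rose by 0.36 ± 0.04 (limma adjusted p 0.00770) and Lamtor4 differed by 0.0030 ± 0.07. Lamtor2 fell by 0.23 ± 0.04 (limma adjusted p 0.0182), and its value was exactly equal on all 3 rapamycin arrays (7.66).

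Folliculin acts on RagC and RagD with FNIP1 or FNIP2 as its partner. Fnip1 fell, while Fnip2 read 8.11, 7.67 and 8.26 with rapamycin and 7.76, 7.57 and 7.49 with PBS, a log2 change of 0.41 ± 0.15 (SE) that missed the threshold (limma adjusted p 0.125). Rapamycin replicate 2 lay within the PBS range, and without it Fnip2 was called higher (0.58, limma adjusted p 0.0327). Flcn itself stood at 0.01 ± 0.07, between 7.43 and 7.69 with rapamycin and between 7.57 and 7.58 with PBS. A difference between the changes of Fnip1 and Fnip2 was not tested.

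Of the genes downstream of mTORC1, Pdcd4 and Larp1 stood out for their spread and their probe sets. Pdcd4, an inhibitor of translation that S6 kinases mark for breakdown, read 8.71, 8.09 and 9.27 with rapamycin and 9.02, 9.10 and 9.02 with PBS. The 3 rapamycin mice lay on both sides of the PBS mice, and the SD of 0.59 in the rapamycin group was above that of 99.9% of all genes tested, beside 0.05 in the PBS group. The log2 change was -0.36 ± 0.26 (SE, limma adjusted p 0.401). Fnip2 had the next largest rapamycin SD, 0.31, above that of 98.9% of genes, and in both genes rapamycin replicate 2 was the lowest and replicate 3 the highest of its group. The median SD over the 41 genes was 0.07 with rapamycin and 0.05 with PBS, beside 0.07 with rapamycin and 0.07 with PBS over all genes tested.

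**Figure D4:**
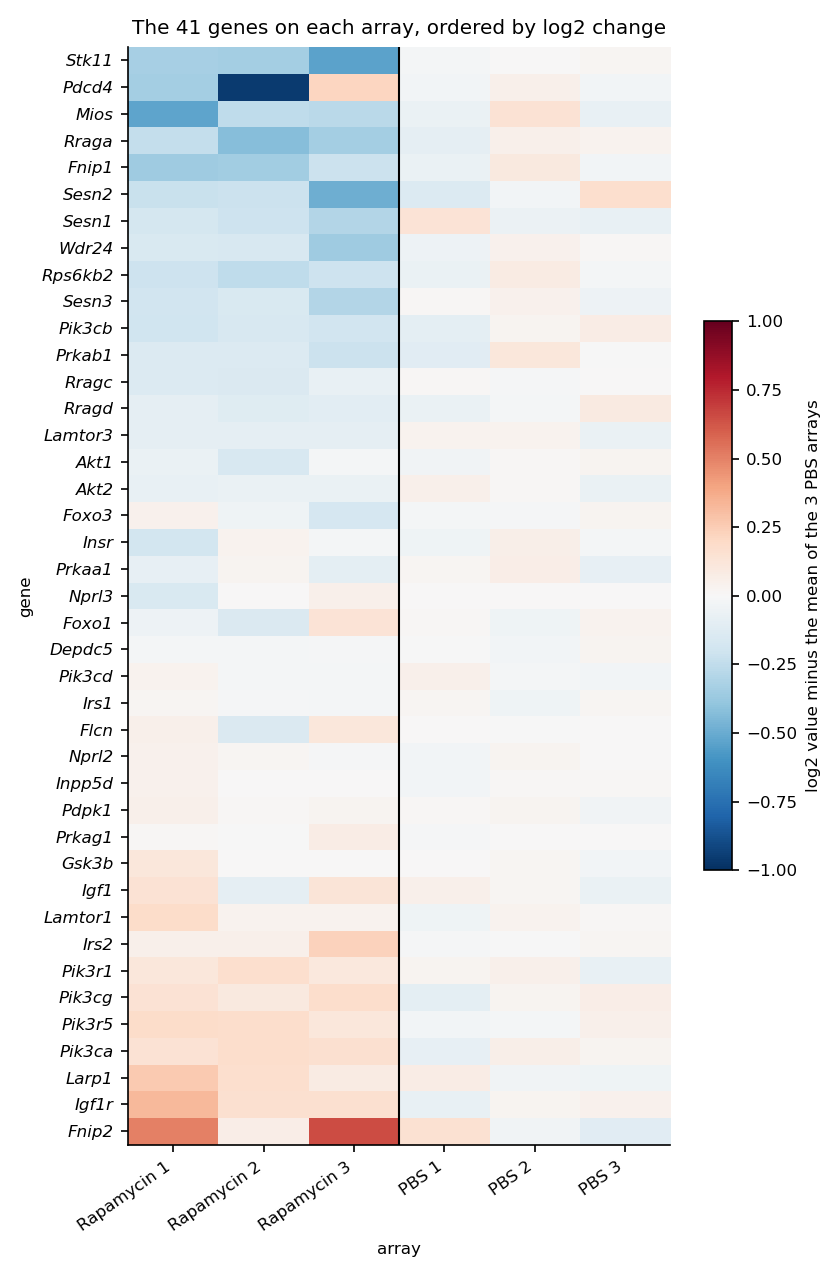
Log2 value minus the mean of the 3 PBS arrays (colour) for the 41 genes (rows, ordered by log2 change) on each array (columns, rapamycin left of the line and PBS right). Stk11, Mios, Rraga and Fnip1 are below the PBS mean on all 3 rapamycin arrays, and Pdcd4 is on either side of it.

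Larp1, which binds the terminal oligopyrimidine motif of ribosomal protein mRNAs and represses their translation when mTORC1 is inactive, had a pair of probe sets that differed in size of change. The brighter, probe set 10376292, read 9.75, 9.66 and 9.58 with rapamycin and 9.57, 9.46 and 9.46 with PBS, a log2 change of 0.17 ± 0.06 (SE, limma adjusted p 0.117 over all genes). The dimmer, probe set 10376312, read 9.45, 9.21 and 9.18 with rapamycin and 8.56, 8.53 and 8.59 with PBS. It stood 0.72 ± 0.08 higher with rapamycin, 1.64-fold, with a limma adjusted p of 0.00438 when each probe set was tested on its own (background 12.6% of 15252 probe sets called). The groups were far apart on the dimmer probe set and nearly touched on the brighter. That call of Larp1 was kept in 6 of the 6 fits with 1 array left out, with log2 changes from 0.63 to 0.77 and adjusted p from 0.0125 to 0.0416 (limma). The log2 difference of the dimmer from the brighter probe set averaged -0.39 ± 0.07 on the rapamycin arrays and -0.93 ± 0.07 on the PBS arrays (SD, n = 3 each), with no overlap between the groups; Larp1 was singled out after this was seen, and the difference is given with no test. With the mean of both probe sets Larp1 was called higher (0.44, limma adjusted p 0.0103). The part of the transcript that each probe set reads was not analysed here.

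**Figure D5:**
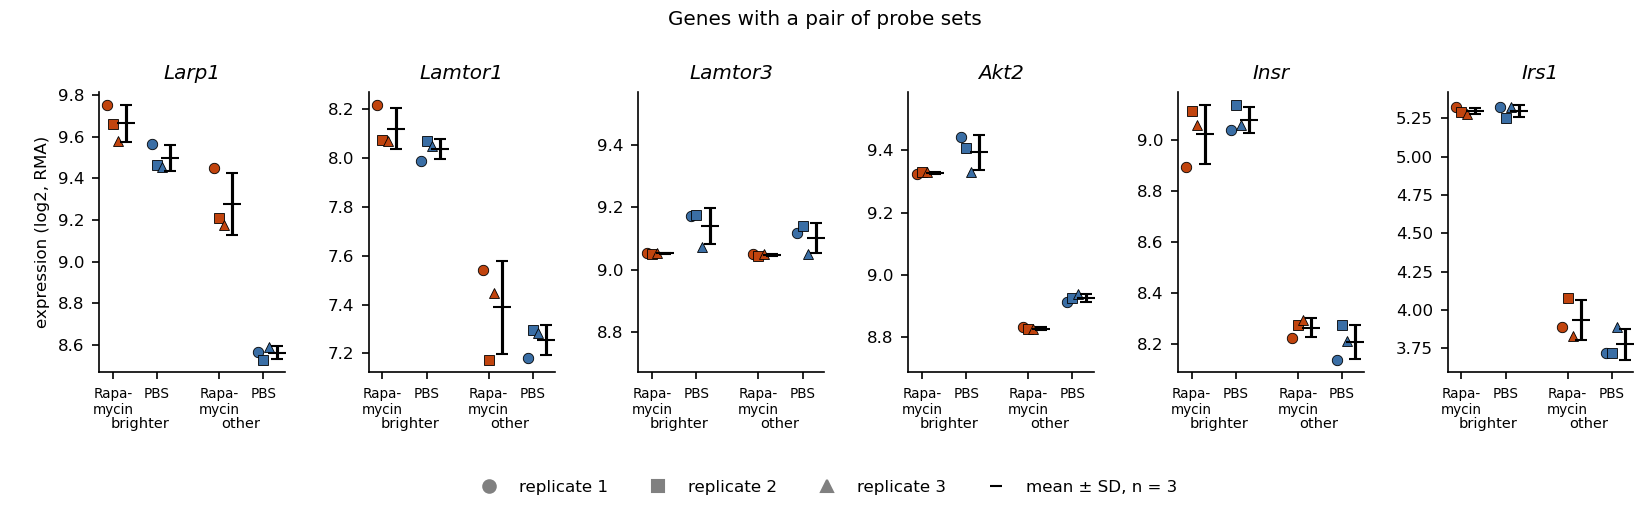
Log2 expression (vertical axis) of the 6 genes with a pair of probe sets, for the brighter probe set (left in each panel, used in the comparison) and the other, each with rapamycin left of PBS; points are mice and bars the mean ± SD (n = 3 each). On the dimmer probe set of Larp1 the 3 rapamycin points, from 9.18 to 9.45, lie above the PBS points, from 8.53 to 8.59.

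Of the 42 genes measured, 6 had a pair of probe sets, and for the other 5 both probe sets were uncalled where bright enough to be tested. For Lamtor1, Lamtor3 and Akt2 the brighter probe set has a number that falls among those of another chromosome: of the 20 named probe sets nearest in number, 20 for Lamtor1 were of genes on chromosome 19, 20 for Lamtor3 on chromosome 7, and 19 for Akt2 on chromosome 11, while the genes lie on chromosomes 7, 3 and 7. On the other probe set, whose neighbours in number all belong to the gene's own chromosome, the log2 change was 0.14 ± 0.09 (SE) for Lamtor1, -0.06 ± 0.04 for Lamtor3 and -0.10 ± 0.04 for Akt2, each uncalled and with the sign of the brighter probe set.

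The rest of the PI3K and mTOR pathway was followed in 70 further genes bright enough to be tested. Of these, limma called 6 higher and 6 lower, which is 17.1% called beside the background of 11.3%, with a median log2 change of -0.01. Rheb, the GTPase that activates mTORC1, rose by 0.34 ± 0.07 (SE), and Gab2, an adaptor that brings PI3K to cytokine receptors, by 0.26 ± 0.05. Socs2, which restrains growth hormone signalling, rose by 0.31 ± 0.06. Eef2k, the kinase that slows translation elongation and is inhibited by S6 kinase, fell by 0.45 ± 0.07, and Mlst8, a subunit of both mTOR complexes, by 0.20 ± 0.04. Castor2, a relative of the arginine sensor, fell by 0.21 ± 0.04. Limma's adjusted p for these 6 genes ran from 0.0137 for Eef2k to 0.0319 for Castor2. The other 6 calls were Lamtor5, Lamtor2, Igf2r and Grb2, given above, and the ribosomal protein gene Rps6 (0.30) and the lysosomal arginine sensor Slc38a9 (0.34), which both rose. The probe set number of Rps6, a gene on chromosome 4, lies between those of Sesn1 and Stk11 on chromosome 10. That of Socs2, a gene on chromosome 10, lies between those of Sgsh (chromosome 11) and Hif1a (chromosome 12). What the probe sets of Rps6 and Socs2 read was not analysed here. Mtor differed by 0.0039 ± 0.04 and Fkbp1a, the protein that rapamycin binds, by 0.04 ± 0.07 (limma adjusted p 0.962 and 0.774). The value of Mtor was exactly equal on rapamycin replicates 2 and 3 and PBS replicate 1. Leaving out an array cut the 12 calls to 2, 3 and 5 (rapamycin replicates 1, 2 and 3) and to 2, 1 and 1 (PBS replicates 1, 2 and 3).

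Targets of the transcription factors at the ends of the pathway were counted as well, leaving out the 44 genes of the list. FOXO targets left out this way were Sesn3, called lower, and Sesn1, Irs2, Insr and Foxo1, not called. TFEB and TFE3 targets left out were Fnip1, called lower, and Fnip2, Flcn, Rragc and Rragd, not called. Rictor, a subunit of mTORC2, is in both the wider pathway and the FOXO targets and was counted in each (log2 change 0.07, not called). Of 21 tested FOXO targets Klf2, a regulator of leukocyte trafficking, fell by 0.44 ± 0.08 (SE, limma adjusted p 0.0220), 0 rose and 20 were not called, which is 4.76% called. Of 21 tested targets of TFEB and TFE3, which mTORC1 keeps in the cytoplasm, 3 rose and 2 fell, and 16 were not called (23.8% called, median 0.08). Over all genes tested, 11.3% were called and the median log2 change was -0.02. The lysosomal protease gene Ctsd rose by 0.47 ± 0.06, Ctsa, the protective protein cathepsin A, by 0.36 ± 0.06 and the lysosomal membrane protein gene Cln3 by 0.35 ± 0.04, while Wipi1, an autophagy protein, fell by 0.43 ± 0.08 and the heparan sulfate hydrolase Sgsh by 0.33 ± 0.07. Limma's adjusted p ran from 0.00763 for Cln3 to 0.0285 for Sgsh. Macrophages are rich in lysosomes, and the macrophage marker sums given above also lay higher with rapamycin. Among the 15 macrophage markers limma called 2 higher and 2 lower. The part of macrophages in these values was not tested. The 5 calls among TFEB and TFE3 targets became 2, 3 and 5 with rapamycin replicates 1, 2 and 3 left out in turn, and 4, 2 and 2 for PBS replicates 1, 2 and 3. The FOXO target count was 0 without rapamycin replicate 1 and without each of the 3 PBS replicates.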

How the data were processed

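Total RNA of CD11b-sorted spleen cells from 6 mice was read on 1 array each. The authors deposited 1 log2 value per probe set and array, summarised by RMA in Affymetrix Expression Console per the submitters' processing notes. Because RMA brings the arrays to a common distribution, a global shift of expression could not be seen.

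Of 35556 probe sets, 21789 had 1 symbol in GEO's platform annotation of 2016. For each of 19938 genes the brightest probe set (by its mean on the 6 arrays) was kept, and 13965 genes whose mean passed log2 4.72, the 30th percentile over probe sets with 1 symbol, were tested. The fit used limma 3.58.1 (R 4.3.3; lmFit and eBayes, two-sided), with Benjamini-Hochberg adjustment across the genes tested and calls at 0.05, and SEs are the moderated ones of that fit. Promoter windows came from RefSeq (GRCm38.p6). On simulated data with 13965 genes the fit recovered 25 of 50 genes changed by a log2 of 0.3 and 50 of 50 changed by 0.6. A further 50 genes each were changed by 1 and 2, and 9 of 184 calls were false. The simulated noise was normal and independent between genes, and fewer genes were changed than were called in the data. Recovery in the data can therefore differ.

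The genes, the lists and the tests were chosen with earlier results of these data known, so no p over a list is given. Per-array values are given for every called gene and for the 6 uncalled genes with the largest change, and from each pathway list up to 8 called genes with the largest moderated statistic are named, with Mtor and Fkbp1a, and up to 2 from each cell type list. Further genes were named after their values were seen. The settings tried were the filter (none, or the 50th percentile), the scaling of the arrays, the handling of several probe sets, the variance model, array weights, each array omitted in turn, and a block by replicate number. Batches were not tested. Mice within a group are biological replicates per the labels.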

Additional observations from a re-analysis of the deposited data

How the results depend on the processing

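The 5 genes called lower became 8 after quantile normalization again or with the array medians aligned over all probe sets, and 3 with the medians aligned over named probe sets or over the genes tested, settings of which the last pair was chosen after seeing the data. The 0 called higher became 1 with the medians aligned over the genes tested (Igf1r) and 1 with probe sets of a gene averaged (Larp1). With 1 array left out, 0 to 3 were called lower and 0 to 1 higher, and over all genes 61 to 775 were lower and 52 to 561 higher. Of all calls 61.0% were lower (617 higher and 967 lower), against 50.7% with the medians aligned over named probe sets (722 and 743) and 44.7% over the genes tested (875 and 707). The lists counted 1 to 5 called genes for the rest of the pathway, 0 to 2 for FOXO targets and 2 to 5 for TFEB and TFE3 targets with 1 array left out, and 2 FOXO targets after quantile normalization again or with the mean of probe sets. With the replicate block 5 genes were called lower, Mios (limma adjusted p 0.0246) in place of Rps6kb2 (0.0620), and 12.1% of all genes were called. Deviations from the group mean correlated at 0.263, 0.00995 and 0.0456 between same-numbered arrays of the groups. Between arrays of different numbers the correlations ran from -0.193 to 0.138. These values cannot decide whether the numbers mark pairs, and the main fit took no pairs. The sign turned, with no call on either side, for Flcn (-0.015 with medians aligned over all probe sets), Depdc5 (0.0072 and 0.016 with medians aligned over named probe sets and the genes tested), Nprl2 (-0.0034 with quantile normalization, -0.0057 with medians aligned over all probe sets), Prkag1 (-0.0058 with quantile normalization), Inpp5d (-0.0096 and -0.0050 in that order of settings), Pik3cd (0.020, 0.028 and 0.0040) and Irs1 (0.022, 0.030 and 0.010) with medians aligned over named probe sets, over the genes tested and with array weights, Irs1 also with the mean of probe sets (0.078), and Foxo1 (0.0032 and 0.012 with medians aligned over named probe sets and the genes tested). With 1 array left out the ranges were -0.044 to 0.085 for Flcn, -0.076 to 0.025 for Nprl3, -0.021 to 0.021 for Pik3cd, -0.025 to 0.010 for Irs1, -0.10 to 0.0087 for Insr and -0.096 to 0.041 for Foxo1. The cause of these shifts was not tested, except that fits with an array left out have fewer samples. The fits of Larp1's dimmer probe set with 1 array left out were added after its values were seen. Brightness limits Grb10 and Rragd, whose values lie near or under the threshold.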

Other observations

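Exactly equal values on 2 or more arrays occurred in 14 of the 41 genes (34.1%), beside 36.8% of all genes tested. Akt2, Irs1 and Gsk3b had the same value on 3 arrays that included both groups, and Nprl3 on 4.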
